A study of Mus musculus with 8 samples.

Results

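The comparison set VEMD8 crypts against VEMD6 crypts, both from mice without Setdb1 in the gut epithelium. It covered every gene whose mean was at least 1 FPKM over the 6 crypt libraries of the study, which held for 10862 of the 16958 genes with a value. FPKM is the number of fragments on a gene, scaled for gene length and library size. A difference is given as the log2 ratio of VEMD8 to VEMD6 after 1 FPKM was added to both, and a gene is called higher or lower when it differed at least 2-fold on that scale. Each group was 1 library, so no ratio has a replicate check, an error or a test, and the spread between replicates is unknown.

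Setdb1 is a histone methyltransferase that places trimethylation on histone H3 lysine 9, a mark of silent chromatin that keeps endogenous retroviruses quiet. VEMD2, VEMD3, VEMD4, VEMD6 and VEMD8 are knockout crypt libraries, genotype iIEC-KO, in which Villin-CreERT2 removes Setdb1, and WT is setdb1fl/fl without the deletion. The villin promoter drives this Cre in gut epithelial cells, and tamoxifen activates it. All 6 groups were C57BL/6 mice with an age label of 8 weeks, treated from 8 to 10 weeks of age with tamoxifen, given once through a gavage tube at 800 mg/kg, in WT as well as in knockouts. The labels do not spell out VEMD. The name of the deposited gene table refers to days, so the numbers may be days, but no label says so and they serve here only as names. They do not say how many animals a library holds.

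The crypt is the pit of the intestinal epithelium. Stem cells at its base divide and give rise to absorptive enterocytes, which carry digestive enzymes and transporters on a brush border, and to secretory Paneth, goblet and enteroendocrine cells. Enterocytes mature as they leave the crypt, and brush border genes are therefore strongest in the upper crypt and villus. The epithelium also defends itself with secreted lectins and defensins, and under interferon-gamma it displays MHC class II and makes immunity-related GTPases.

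The defence lectins Reg3b and Reg3g differed most in absolute level, being higher in VEMD8, and MHC class II and interferon-gamma genes were among those with lower values. The starts of 8 genes from these groups and from the stress genes described further on are printed here as examples of members that hold a shared run or a motif known for their group, as RefSeq windows on GRCm38.p6 from 250 bases before to 50 bases after the start, written along the gene's strand. Reg3b, chr6:78370635-78370934 on the plus strand, and Reg3g, chr6:78468825-78469124 on the minus strand, share a run of 29 bases that begins 20 bases before the start, in capitals.
Reg3b: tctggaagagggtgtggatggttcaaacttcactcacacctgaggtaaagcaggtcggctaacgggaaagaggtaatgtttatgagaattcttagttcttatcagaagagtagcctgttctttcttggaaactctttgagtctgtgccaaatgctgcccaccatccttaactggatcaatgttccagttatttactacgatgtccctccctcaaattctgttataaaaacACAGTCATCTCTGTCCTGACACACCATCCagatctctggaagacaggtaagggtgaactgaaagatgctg
Reg3g: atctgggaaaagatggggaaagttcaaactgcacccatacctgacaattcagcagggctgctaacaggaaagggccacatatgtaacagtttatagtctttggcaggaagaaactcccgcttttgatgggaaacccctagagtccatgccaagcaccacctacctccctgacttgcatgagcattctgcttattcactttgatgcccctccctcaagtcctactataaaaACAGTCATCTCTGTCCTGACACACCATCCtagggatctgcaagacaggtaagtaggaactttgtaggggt
The next windows are of H2-Aa, chr17:34287774-34288073 on the minus strand, and H2-Eb1, chr17:34305617-34305916 on the plus strand. Each gene codes for a chain of a different MHC class II molecule. Capitals mark a Y box, CTGATTGG, the CCAAT-type element of class II promoters.
H2-Aa: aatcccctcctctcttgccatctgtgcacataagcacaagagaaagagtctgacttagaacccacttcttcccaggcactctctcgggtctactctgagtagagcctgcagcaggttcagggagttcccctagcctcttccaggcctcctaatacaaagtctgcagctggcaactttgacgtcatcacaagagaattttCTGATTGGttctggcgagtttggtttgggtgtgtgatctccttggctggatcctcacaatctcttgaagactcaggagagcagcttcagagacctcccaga
H2-Eb1: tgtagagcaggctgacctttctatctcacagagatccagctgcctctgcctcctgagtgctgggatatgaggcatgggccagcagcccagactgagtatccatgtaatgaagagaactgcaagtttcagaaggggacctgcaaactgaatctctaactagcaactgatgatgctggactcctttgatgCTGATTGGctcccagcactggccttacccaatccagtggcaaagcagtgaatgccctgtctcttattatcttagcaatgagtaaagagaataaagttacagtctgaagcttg
In Gbp2, chr3:142620413-142620712 on the plus strand, and Tgtp1, chr11:48992197-48992496 on the minus strand, capitals mark GAAA, any 2 bases and GAAA again, on either strand, the core of the element bound by interferon regulatory factors.
Gbp2: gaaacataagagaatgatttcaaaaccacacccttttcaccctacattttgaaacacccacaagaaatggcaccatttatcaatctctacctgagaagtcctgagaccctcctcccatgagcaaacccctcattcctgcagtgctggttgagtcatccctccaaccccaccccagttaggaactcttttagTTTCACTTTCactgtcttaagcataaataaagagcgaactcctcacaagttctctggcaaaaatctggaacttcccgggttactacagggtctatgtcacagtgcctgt
Tgtp1: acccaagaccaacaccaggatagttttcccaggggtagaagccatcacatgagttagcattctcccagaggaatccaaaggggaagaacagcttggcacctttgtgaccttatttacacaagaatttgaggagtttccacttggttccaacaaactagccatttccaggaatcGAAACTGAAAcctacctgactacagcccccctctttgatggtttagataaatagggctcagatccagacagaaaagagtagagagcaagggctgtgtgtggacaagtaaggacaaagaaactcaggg
In Chac1, chr2:119350992-119351291 on the plus strand, and Slc7a11, chr3:50443564-50443863 on the minus strand, capitals mark TGATGNAA on either strand, a core of the element bound by ATF4 with C/EBP partners. Slc7a11 holds 2 matches.
Chac1: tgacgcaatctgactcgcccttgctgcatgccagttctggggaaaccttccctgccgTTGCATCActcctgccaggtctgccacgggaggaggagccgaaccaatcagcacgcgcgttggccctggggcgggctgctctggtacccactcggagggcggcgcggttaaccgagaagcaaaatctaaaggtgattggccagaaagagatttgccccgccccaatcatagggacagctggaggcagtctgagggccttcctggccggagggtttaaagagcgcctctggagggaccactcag
Slc7a11: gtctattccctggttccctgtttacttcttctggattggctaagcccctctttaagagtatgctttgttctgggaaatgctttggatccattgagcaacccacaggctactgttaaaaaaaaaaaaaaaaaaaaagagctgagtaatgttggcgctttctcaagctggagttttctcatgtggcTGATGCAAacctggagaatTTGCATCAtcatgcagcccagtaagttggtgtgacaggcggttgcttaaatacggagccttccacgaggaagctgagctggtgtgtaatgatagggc

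Each motif was searched on both strands in the windows of all genes compared, of which 8804 had a window. The repeated GAAA element was in 3.28% of these windows. It was in 10.8% of those of genes called lower, 20 of 185, and in 5.88% of those called higher, 7 of 119. The genes called lower include 12 of the interferon-gamma list, so the shares of these 2 sets are not separate. It was in 10 of the 13 interferon-gamma genes with a window and in 14 of the 24 type I interferon genes with a window, 2 lists with different ratios as described further on. TGATGNAA was in 2.16% of all windows, in 5.88% of those called higher, 7 of 119, and in 1.62% of those called lower, 3 of 185. It was in 5 of the 22 integrated stress genes with a window, a list with 10 members called higher. The Y box was in 6.3% of all windows in 2 of 6 MHC class II windows, in 9.24% of those called higher, in 7.57% of those called lower and in 8 of the 22 integrated stress windows. The Chac1 window printed above also holds a Y box, which is not in capitals there. TATAAA stood in 7.38% of all windows, 17.6% of those called higher and 22.7% of those called lower, and the median GC content was 60.7%, 53.7% and 53% in the same order. Matches of different motifs can overlap in part. A match describes the window and does not show binding.

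Of the 10862 genes, 157 were called higher in VEMD8, which is 1.45%, and 241 were called lower, which is 2.22%. At least 4-fold ratios were found for 26 genes in the higher direction and 31 in the lower one. The median gene was 0.18 higher on the log2 scale, with 7326 genes above 0 and 3506 below, and 1 in 10 genes lay under -0.40 and 1 in 10 over 0.59. Both libraries were also rescaled, in opposite directions, so that the median gene was equal in them. After this, 97 genes (0.893%) were called higher and 385 (3.54%) lower. The share of calls in the higher direction went from 39.4% to 20.1%. Directions of small ratios depend on this choice, so lists are also set against the median of all genes. The closest pair of libraries, VEMD3 and VEMD2, gave 156 genes higher in VEMD3 (1.44%) and 121 lower (1.11%), in all 277 (2.55%), and VEMD6 and VEMD8 with 398 calls (3.66%) were the third closest of the 15 pairs.

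**Figure D1:**
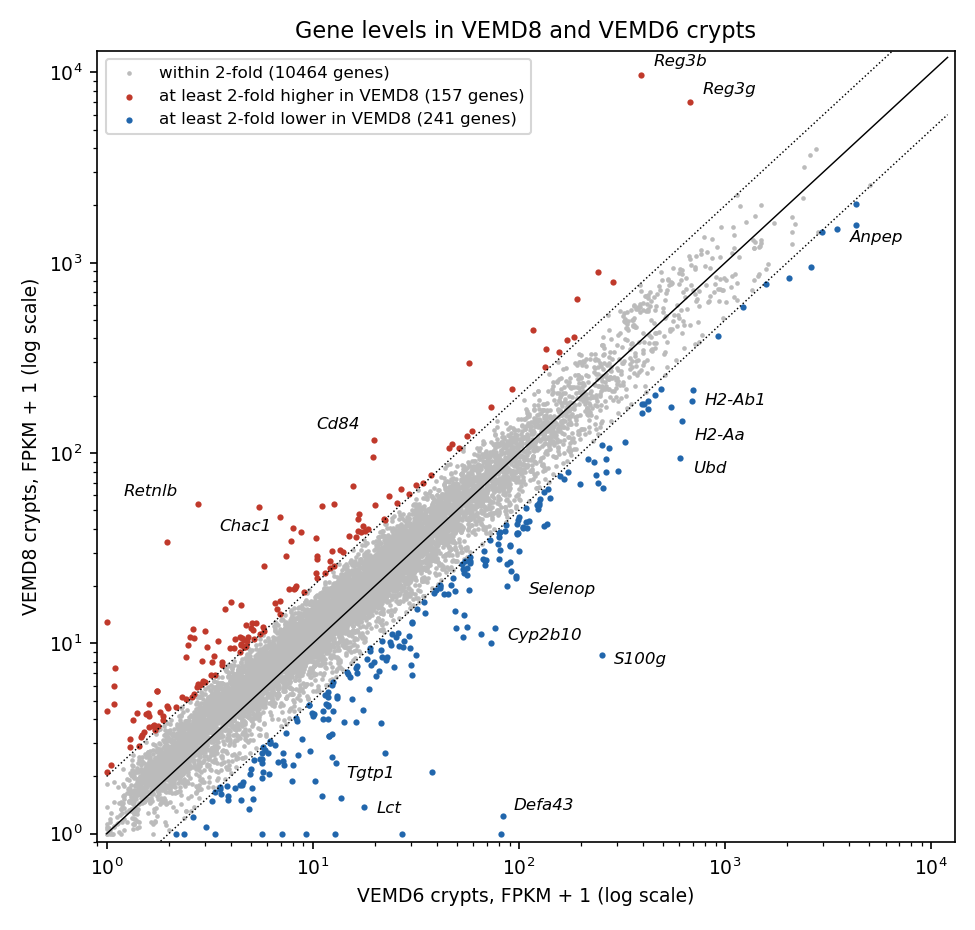
Level of each of the 10862 genes in VEMD6 (x) and VEMD8 (y), in FPKM + 1 on log scales, with equality as a solid line and 2-fold as dotted lines. Reg3b and Reg3g stand above all other genes of high level, and S100g, Lct and Defa43 lie far below the line.

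Setdb1 was 3.53 FPKM in VEMD6 and 4.95 in VEMD8, both below the 9.42 of WT and the 5.49 to 7.03 of VEMD2, VEMD3 and VEMD4. The log2 ratio was 0.39, under the 2-fold limit. Both libraries had the defining epithelial genes at high level, with the adhesion gene Epcam at 887 and 700 FPKM in VEMD6 and VEMD8. They also shared a feature the other 4 libraries lacked. Pdx1, a homeobox factor of the duodenum, was 17.9 FPKM in VEMD6 and 16.7 in VEMD8 against 0.19 to 0.32 elsewhere, and Fabp6, a bile acid binder of the ileum, was 0 and 0.38 against 2.27 to 51.7. Slc40a1, the iron exporter ferroportin, was 46.7 and 20.9 FPKM against 0.16 to 1.77. These genes differ along the length of the small intestine. The labels do not give the region a library came from, and its part in the levels was not tested. For this reason the other 4 libraries are given here only as levels beside the pair. Over all genes compared, VEMD6 lay below all of the other 4 in 52.2% and VEMD8 in 35.4%, and each lay above them in 17.5%. Among genes called higher, VEMD8 lay above them in 51% and VEMD6 below them in 55.4%. Among genes called lower, VEMD6 lay above them in 57.7% and VEMD8 below them in 29.5%. A highest or lowest place of a single gene is to be read beside these shares.

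The Reg lectins and Retnlb had the highest median ratio of the lists with at least 3 genes compared. Reg3b, a lectin that Paneth cells and enterocytes secrete against bacteria, was 389 FPKM in VEMD6 and 9734 in VEMD8, the highest value of any gene in this pair, beside 1687 in WT and 525, 434 and 2051 in VEMD2, VEMD3 and VEMD4. Its log2 ratio was 4.64. Reg3g, the related lectin that kills Gram-positive bacteria, was 677 FPKM in VEMD6 and 6988 in VEMD8, beside 1571 in WT and 794, 1007 and 2908 in VEMD2, VEMD3 and VEMD4, a log2 ratio of 3.36. VEMD8 was the highest and VEMD6 the lowest of the 6 libraries for both genes. Retnlb, a goblet cell protein toxic to bacteria, was 1.78 FPKM in VEMD6 and 52.8 in VEMD8, with 28.8 in VEMD4 and at most 3.10 in the other 3, a log2 ratio of 4.27.

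The Reg family and Retnlb formed a list of 9 genes, of which 6 passed the filter. Of these 5 were called higher and none lower, with a median log2 ratio of 2.83. Reg1 was 18.6 FPKM in VEMD6 and 94.5 in VEMD8, and Reg3a was 2.74 and 14.2 FPKM. Reg3b, Reg3a, Reg1 and Reg3g are neighbours on chromosome 6 between bases 78370885 and 78468874 of GRCm38. Reg4, a member at another place, was 47.8 and 42.5 FPKM, a ratio of -0.16. Reg3b and Reg3g are related genes, and how the authors' counting treated reads that match both is not known. The sum over the Reg3 genes was 1070 FPKM in VEMD6 and 16740 in VEMD8 against 1326 to 4970 in the other 4 libraries.

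Oxidases and further mucosal defence genes were higher in 6 and lower in 2 of 18 members, with a median of 0.29. Duoxa2, the maturation factor of the hydrogen peroxide producing oxidase Duox2, was 11.6 FPKM in VEMD6 and 52.9 in VEMD8, against 13.6 to 145 in the other 4. Duox2 itself was 16.9 and 38.0 FPKM, against 18.8 to 106. For both genes VEMD6 was below that range and VEMD8 within it. Fut2, which fucosylates mucosal glycans, was 6.45 and 27.9 FPKM, against 1.08 to 22.6 elsewhere. Dmbt1, a scavenger glycoprotein of mucus, was 240 and 898 FPKM against 72.6 to 566, and Cfi, which cleaves complement C3b, was 1.48 and 8.84 FPKM against 4.49 to 9.20. VEMD8 was the highest of all 6 libraries for Fut2 and Dmbt1, and VEMD4 was the highest for Duoxa2, Duox2 and Cfi. The 2 members called lower, Sprr2a1 (920 and 414 FPKM) and Sprr2a3 (2941 and 1453 FPKM), are near copies of a cornified envelope gene, and the sum over the Sprr2 genes was 4611 and 2249 FPKM. After rescaling, 4 members were called higher and 3 lower, and Duox2 and Lcn2 were no longer called.

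Among 15 epithelial chemokines and alarmins, 3 were called higher and none lower, with a median of -0.21. Ccl20, which attracts lymphocytes and dendritic cells through CCR6, was 14.1 FPKM in VEMD6 and 35.7 in VEMD8, against 0.43 to 4.57 in the other 4. Il18, a cytokine released after inflammasome cleavage, was 30.6 and 67.0 FPKM against 14.1 to 32.7. Lcn2, which withholds iron from bacteria, was 2.62 and 7.01 FPKM against 1.5 to 3.80. VEMD8 was the highest library for all 3 genes. After rescaling to the median gene, Ccl20 alone of the 3 was called. Ccl25, the small intestinal homing chemokine, was 343 and 251 FPKM and not called.

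The markers of Paneth cells, which fill the crypt base with antimicrobial granules, were higher in 4 and lower in none of 17 members, and 15 of 17 lay above the median of all genes. The list's median was 0.79. Nupr1, a stress-induced chromatin protein that is also in the stress list, was 4.80 and 24.6 FPKM. Pla2g2a, a phospholipase gene whose protein was not measured here, was 7.79 and 37.5 FPKM. For both genes VEMD6 was the lowest library, and it lay below the other 4 for 52.2% of all genes compared. VEMD8 still lay below or within the other 4, at 17.8 to 29.5 FPKM for Nupr1 and 56.5 to 118 for Pla2g2a. Lyz1, the Paneth cell lysozyme, was 490 and 896 FPKM, not called, against 1875 to 6844 elsewhere. Goblet cell markers gave 3 higher and 1 lower of 21, with a median of 0.50, among them Spdef, a transcription factor of secretory maturation, at 4.56 and 10.2 FPKM. After rescaling, 2 Paneth markers were called higher and 1 lower, and 1 goblet marker was called higher and 1 lower. In these bulk samples fewer cells of a type and less RNA per cell cannot be told apart.

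Alpha-defensins, the Paneth cell peptides that kill bacteria in the gut lumen, went in both directions. Of 22 genes compared, 4 were called higher and 10 lower, with a median of -0.45. Defa42 was 81.1 FPKM in VEMD6 and listed at 0 in VEMD8, and Defa43 was 82.6 and 0.24 FPKM. Both were at most 3.07 FPKM in the other 4 libraries, so VEMD6 stood apart for them. Defa3 was 26.1 FPKM in VEMD6 and listed at 0 in VEMD8, and Defa2 was 36.9 and 1.11 FPKM, with 0 in the other 4 libraries for Defa2. In the other direction Defa35 was 56.2 and 297 FPKM and Defa5 was 92.0 and 216. The summed level of the list was 2936 FPKM in VEMD6 and 3365 in VEMD8, a log2 ratio of 0.20 that became -0.01 after rescaling, against 6680 to 45195 in the other 4. These genes are near copies in one cluster, and the value of a single one depends on how reads were divided among them.

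**Figure D2:**
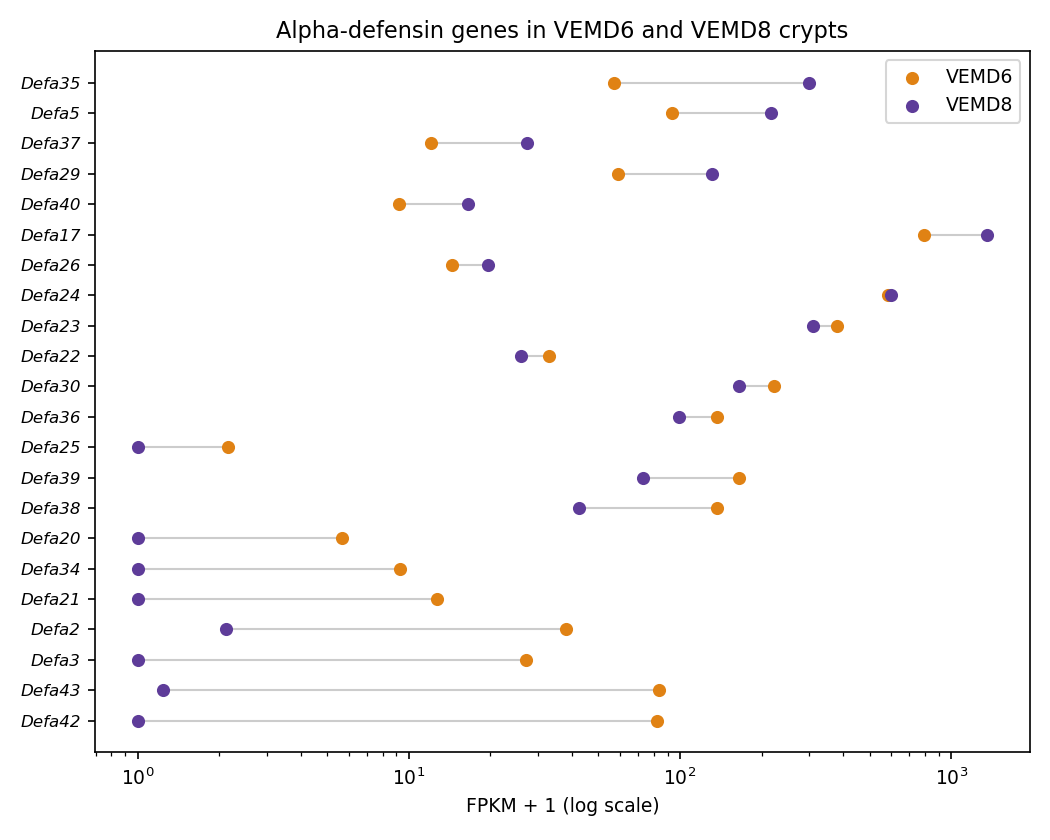
Each of the 22 alpha-defensin genes compared, in FPKM + 1 on a log scale, with VEMD6 and VEMD8 joined by a line. Defa42 and Defa43 lie furthest below their VEMD6 level, and Defa35 and Defa5 furthest above.

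Targets of ATF4 and the integrated stress response, which cells use to restore amino acids and protein folding when translation initiation is restrained, were higher in 10 and lower in none of 24 members. The median was 0.73, and 23 of 24 lay above the median of all genes. After rescaling, 5 were called higher. Chac1, which breaks down glutathione and is a target of ATF4 and CHOP, was 6.80 FPKM in VEMD6 and 33.4 in VEMD8, beside 1.53 in WT and 2, 1.71 and 4.20 in VEMD2, VEMD3 and VEMD4, a log2 ratio of 2.14. VEMD8 was far above every other library, and VEMD6 was the second highest. Trib3, a pseudokinase that feeds back on ATF4, was 2.98 and 8.41 FPKM against 1.11 to 2.41, and Slc7a11, the cystine importer, was 0.59 and 3.31 FPKM against 0.03 to 1.17.

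The enzymes and transporters of amino acid supply followed. Asns, asparagine synthetase, was 50.2 FPKM in VEMD6 and 106 in VEMD8, against 30.9 to 58.7 in the other 4 libraries. Psat1 of serine synthesis was 21.4 and 43.7 FPKM, Mthfd2 of mitochondrial folate metabolism was 16.1 and 37.3 FPKM, and Slc7a5, a leucine transporter chain, was 9.33 and 22.4 FPKM. All of these were called higher, with log2 ratios of up to 1.18, that of Slc7a5. After rescaling to the median gene, none of Asns, Psat1, Mthfd2 and Slc7a5 was called. Atf4 itself was 156 and 243 FPKM, a ratio of 0.64 that was not called, against 159 to 172 elsewhere. Slc3a2, the partner chain of Slc7a5, was the one member below the median of all genes, at 130 and 87.0 FPKM. Of the 23 genes for endoplasmic reticulum chaperones and the unfolded protein response, none was called, 22 lay above the median of all genes and the list's median was 0.41. Hspa5, the chaperone BiP, was nearest to the limit, at 1143 FPKM in VEMD6 and 2277 in VEMD8 against 416 to 924 elsewhere.

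Genes of growth shifted together by less than 2-fold. All 28 proliferation genes, all 30 of ribosome biogenesis and all 19 of DNA repair lay above the median of all genes, with list medians of 0.50, 0.60 and 0.56 and no call. Of 74 cytosolic ribosomal proteins, 71 lay above it, and their summed level was 32734 FPKM in VEMD6 and 47018 in VEMD8. Mki67, a protein of cycling cells, was 25.2 and 44.2 FPKM, against 35.8 to 53.1 in the other 4, and Npm1, a nucleolar chaperone, was 308 and 557 FPKM. Cycling stem cell markers had a median of 0.52 with none of 19 called. Olfm4, a secreted stem cell marker, was 154 and 300 FPKM, and Lgr5, the R-spondin receptor that defines the stem cell, was 0.41 and 0.32 FPKM. In the opposite direction, all 50 nuclear genes of oxidative phosphorylation lay below the median of all genes, with a list median of -0.13, none called and 5 members above 0.

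MHC class II, the molecules that present peptides to CD4 T cells, was lower in VEMD8 in 8 of the 9 genes compared, with none higher and a median of -1.49. H2-Aa, an alpha chain, was 615 FPKM in VEMD6 and 146 in VEMD8, beside 787 in WT and 470, 315 and 229 in VEMD2, VEMD3 and VEMD4, a log2 ratio of -2.07. H2-Ab1, its beta chain, was 689 and 186 FPKM, beside 1005 in WT and 604, 452 and 310 in VEMD2, VEMD3 and VEMD4, a ratio of -1.88. For both genes VEMD8 was the lowest library and VEMD6 the second highest after WT. H2-Eb1 was 265 and 78.4 FPKM, and the invariant chain Cd74 was 2033 and 826 FPKM, each with the lowest value in VEMD8.

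The genes of class II loading and control were lower as well. Ciita, the coactivator on which class II transcription depends, was 10.9 FPKM in VEMD6 and 3.70 in VEMD8, against 3.33 in VEMD4 and 8.72 to 15.7 in the other 3. H2-DMa was 56.4 and 18.2 FPKM, H2-DMb1 was 140 and 57.3, and H2-DMb2 was 2.04 and 0.08. The 3 H2-DM genes, which load peptides, are neighbours on chromosome 17 from 34119693 to 34160229, and H2-Ab1, H2-Aa and H2-Eb1 from 34263227 to 34316674. Ctss, the protease that trims the invariant chain, was 83.0 and 70.7 FPKM, the one member not called. MHC class I and its processing genes lay below the median of all genes in 20 of 20 cases, with 4 called lower and a median of -0.65, for example the transporter subunit Tap1 at 117 and 72.4 FPKM.

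Interferon-gamma GTPases and companions, which attack vacuoles of intracellular parasites, were lower in 12 and higher in none of 19 members, with a median of -1.20. Tgtp1 was 12 FPKM in VEMD6 and 1.34 in VEMD8, beside 41.0 in WT and 67.5, 21.9 and 13.5 in VEMD2, VEMD3 and VEMD4, a log2 ratio of -2.47. Tgtp1 and Tgtp2 are near copies, and their sum was 21.0 and 4.51 FPKM. Iigp1 was 16.5 and 3.46 FPKM, against 16.4 to 45.2 elsewhere, and Gbp2 was 7.03 and 1.30 FPKM, against 9.46 to 16.8. For these 3 genes VEMD8 was the lowest of all 6 libraries. Igtp was 240 and 68.2 FPKM against 97.6 to 258 in the others, and Gbp4 was 131 and 40.6 FPKM against 7.98 to 46.5. Gbp9, by contrast, was 14.0 and 19.6 FPKM. Gbp4, Gbp10 and Gbp6 are neighbours on chromosome 5 from 105115767 to 105295871, and Tgtp1, Tgtp2 and Ifi47 lie together on chromosome 11 from 48985329 to 49096987. Ubd, an interferon-gamma and TNF responsive ubiquitin-like protein outside the list, was 605 FPKM in VEMD6 and 93.0 in VEMD8.

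The type I interferon antiviral genes had different values. Of 35 members, 1 was called higher and none lower, with a median of -0.02. Isg15, a ubiquitin-like antiviral protein, was 146 and 138 FPKM, and Rsad2, which makes a chain terminating nucleotide, was 24.9 and 24.9 FPKM. Oas2, which activates RNase L on sensing double-stranded RNA, was 2.06 and 8.60 FPKM, the one member called higher, against 43.8 in VEMD4 and 1.35 to 13.8 in WT, VEMD2 and VEMD3.

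Leukocytes are the other cells that could carry class II and interferon-gamma genes. The summed level of the leukocyte list was 149 FPKM in VEMD6 and 92.5 in VEMD8, against 133 to 224 in the other 4, over 25 measured genes. Of the 17 compared, Nkg7, a granule protein of cytotoxic cells, was the one called, at 5.21 and 2 FPKM. Gzmb and Gzma, granzymes of intraepithelial lymphocytes, were 33.1 and 16.8 FPKM and 70.4 and 40.4 FPKM. These granzymes made up most of the list's sum in both libraries. Cd8a and Ptprc, the pan-leukocyte phosphatase, were 2.98 and 2.81 FPKM and 1.41 and 1.45 FPKM. Values of the list's B cell and macrophage members are not given here, and the sum says little about them. The part of leukocytes in the lower class II and interferon-gamma values was not tested. Of 19 stromal and endothelial genes, 2 passed the filter, and the list's sum was 2.99 and 4.01 FPKM.

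Brush border hydrolases, the digestive enzymes of mature enterocytes, were lower in VEMD8 in 12 and higher in none of 20 members, and all 20 lay below the median of all genes. The list's median was -1.17. Lct, lactase, was 16.7 FPKM in VEMD6 and 0.39 in VEMD8, beside 65.1 in WT and 24.0, 6.25 and 5.87 in VEMD2, VEMD3 and VEMD4, a log2 ratio of -3.67. Asah2, a ceramidase of the brush border, was 52.4 and 9.77 FPKM against 8.68 to 64.5. Anpep, aminopeptidase N, was 3497 and 1496 FPKM against 399 to 1015, so that both libraries lay above the other 4. The summed level of the list was 7545 FPKM in VEMD6 and 3776 in VEMD8 against 1186 to 3037 in the other 4. Sis, sucrase-isomaltase, was 164 and 185 FPKM, and was not called.

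Transport and fat handling showed the same direction with fewer calls. Of 21 nutrient transporters, 7 were called lower and none higher, with a median of -0.63. Slc34a2, a phosphate importer, was 10.1 FPKM in VEMD6 and 0.58 in VEMD8 against 9.57 to 50.1 elsewhere, and Slc6a19, which takes up neutral amino acids, was 263 and 92.4 FPKM against 24.7 to 94.1. Of 25 genes of fat absorption, 7 were called lower and none higher, with a median of -0.72. Fabp2, the intestinal fatty acid binder, was 2595 and 952 FPKM, and Apoa4, an apolipoprotein of chylomicrons, was 4304 and 1585 FPKM. Apoa1, Apoc3 and Apoa4 are neighbours on chromosome 9 from 46228630 to 46243458, and all 3 were called lower. Of 16 brush border structure genes 3 were called lower, with a median of -0.66, among them Espn, an actin bundler, at 111 and 42.8 FPKM.

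Cytochrome P450 and other drug oxidases were lower in 14 and higher in 1 of 35 members, with a median of -0.78. Cyp3a11, the main bile acid and drug oxidase of the mouse liver and gut, was 21.4 FPKM in VEMD6 and 1.67 in VEMD8, against 1.61 to 34.0 in the other 4. Cyp2b10, a target of the receptor CAR, was 75.2 and 11.1 FPKM against 4.57 to 28.2, and Cyp1a1, a target of the aryl hydrocarbon receptor, was 95.5 and 21.6 FPKM against 0.93 to 11.3. VEMD6 was the highest library for Cyp2b10 and Cyp1a1. The member called higher was Cyp3a44, at 1.43 and 7.46 FPKM. The Cyp3a genes are close relatives, and the sum over the 8 of them was 281 FPKM in VEMD6 and 228 in VEMD8, a log2 ratio of -0.30. The receptors Nr1i2, Nr1i3 and Ahr had ratios of -0.28, -0.25 and 0.47.

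Genes of proximal small intestine and mineral uptake held the largest difference outside the defensins. S100g, the calcium binder calbindin-D9k of duodenal enterocytes, was 251 FPKM in VEMD6 and 7.67 in VEMD8, beside 18.8 in WT and 10.5, 8.74 and 5.38 in VEMD2, VEMD3 and VEMD4, a log2 ratio of -4.86. VEMD6 thus stood alone, and VEMD8 lay within the others. Of 13 proximal genes 6 were called lower and 2 higher, with a median of -0.96. Pdx1, Gata4 and Onecut2, the transcription factors of that region, had ratios of -0.09, -0.06 and 0.16. The part of gut region in these values was not tested.

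Hormones of enteroendocrine cells were lower in VEMD8 in 5 and higher in none of 10 genes compared, with a median of -0.97. Gip, the incretin of K cells, was 29.2 FPKM in VEMD6 and 5.84 in VEMD8, beside 121 in WT and 133, 228 and 125 in VEMD2, VEMD3 and VEMD4, a log2 ratio of -2.14. Sst, somatostatin, was 7.50 and 1.59 FPKM against 22.3 to 46.9, and Cck, cholecystokinin, was 10.9 and 3.02 FPKM against 25.6 to 49.5. Both libraries were below all others for these 3 genes, with VEMD8 the lowest. The granin Chga was 10.2 and 3.39 FPKM, the one call among 11 fate factors and granins, while Neurog3, the factor that founds the lineage, was 0.46 and 0.91 FPKM.

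**Figure D3:**
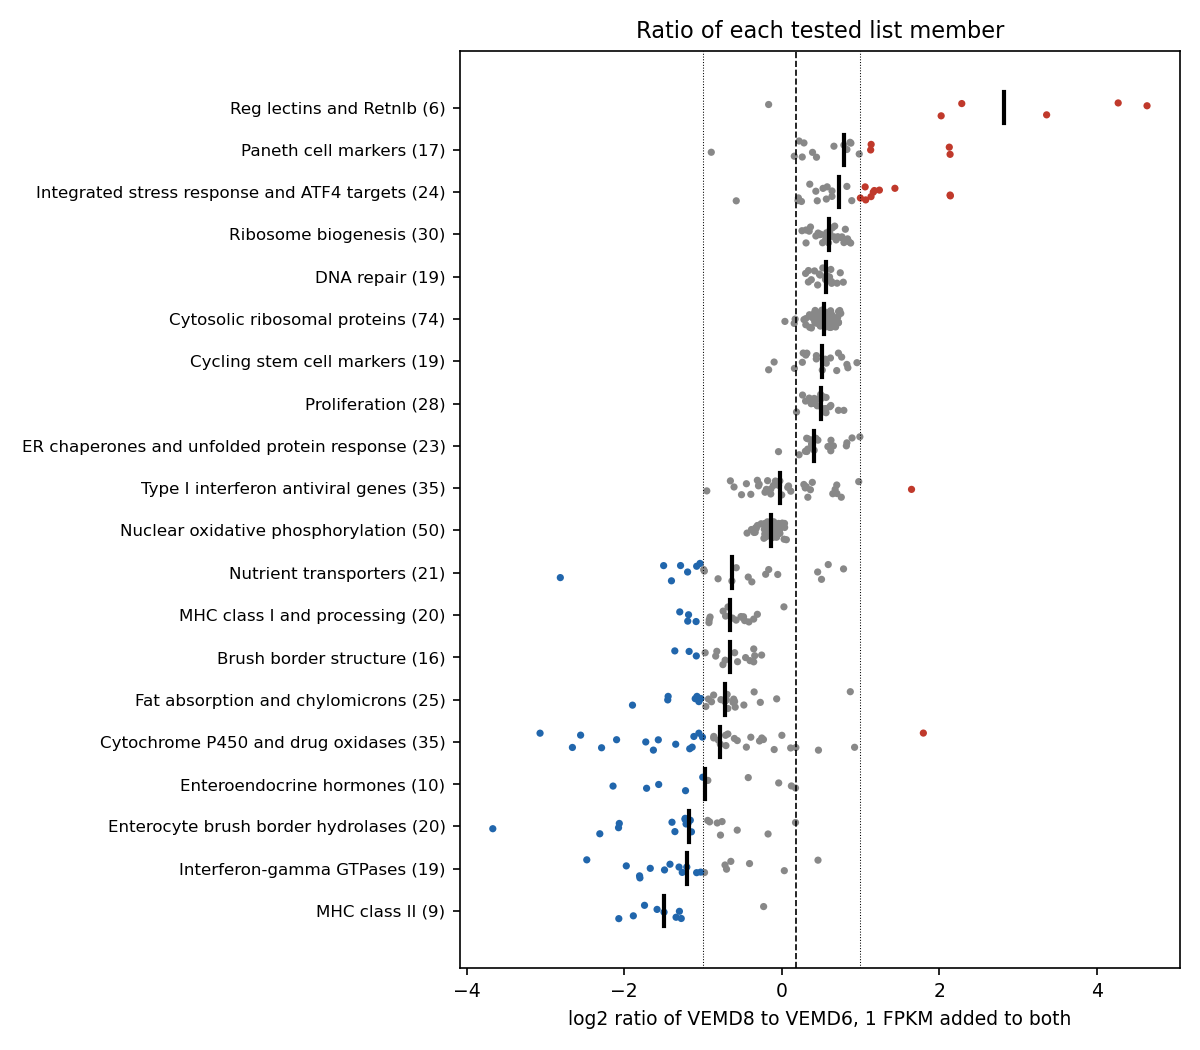
Log2 ratio of VEMD8 to VEMD6 of each gene compared in 20 lists, with list size in brackets. Thick bars are list medians, the dashed line the median of all genes (0.18) and dotted lines 2-fold. The medians run from 2.83 for Reg lectins and Retnlb to -1.49 for MHC class II, and the ribosomal and proliferation lists form narrow bands just above the dashed line.

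**Figure D4:**
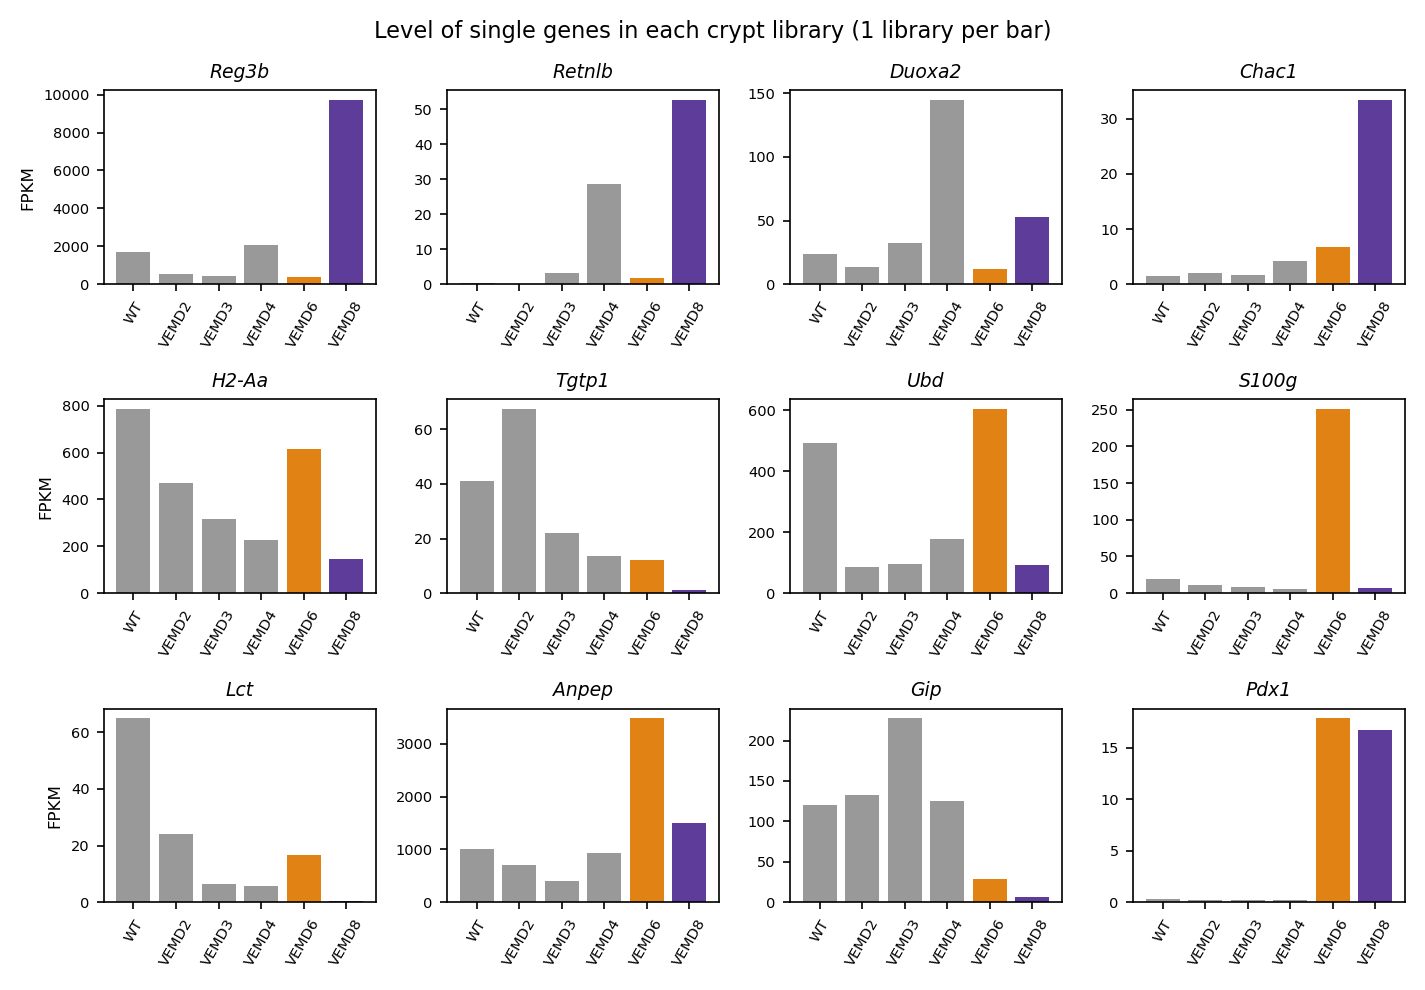
FPKM of 12 genes in each of the 6 crypt libraries, 1 library per bar and no error, with VEMD6 in orange and VEMD8 in purple. Reg3b, Retnlb and Chac1 are highest in VEMD8, S100g, Ubd and Anpep in VEMD6, and Pdx1 is high in both.

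Some called genes lay side by side. Of the 240 lower genes with a position, 51 (21.2%) stood in 22 runs of adjacent compared genes that were called in the same direction, and of 153 higher genes 20 (13.1%) stood in 8 runs. Besides the Reg, class II, Gbp, Tgtp and apolipoprotein runs, Sord, Duox2, Duoxa2 and Shf were adjacent on chromosome 2 from 122234839 to 122369147 and all higher. No share for other sets of genes was computed, and neighbours that are near copies can share reads.

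Lists of cell death and damage are given beside the share of all genes, 1.45% called higher and 2.22% called lower. At these shares, lists of this size hold few calls in any case. None of 18 necroptosis genes was called, with a median of -0.08, and Zbp1, Ripk3 and Mlkl, the sensor, kinase and executioner of that pathway, had ratios of -0.51, -0.22 and -0.07. Of 25 p53 targets 2 were called higher and none lower, with a median of 0.00. The 2 were Ddit4, an inhibitor of mTORC1, at 11.4 and 29.7 FPKM, and Gdf15, a stress cytokine, at 0.88 and 3.13 FPKM. Cdkn1a, the cell cycle inhibitor p21, was 240 and 125 FPKM, a ratio of -0.94, and Fas, a death receptor also in the necroptosis list, was 25.3 and 12.6 FPKM, a ratio of -0.95. Both were called lower after rescaling.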

How the data were processed

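RNA of mouse crypts was sequenced as 1 library per group on a BGI-500 instrument, per the labels' protocols. The submitters' processing notes name HISAT2, featureCounts and edgeR with the builds GRCm38 and mm10, without versions or roles. The values used are FPKM as deposited, which the authors rounded to 2 decimals. The unit is named in the headers. Of 20718 lines, 3760 held no value. Of the 16958 genes, 92 were at 0 in all crypt libraries, and 16916 were given a symbol by gene identifier from RefSeq.

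A gene was compared when it averaged 1 FPKM or more over the 6 crypt libraries. The measure was the log2 ratio of VEMD8 to VEMD6 after a pseudocount of 1 FPKM, which understates the change of low genes, and 2-fold was the limit for a call. A gene low in one of the pair can pass this filter through the other, or through the remaining libraries. With 1 library per group there is no test, p-value or error. Depth is unknown. Among 1039 genes of 0.1 to 0.5 FPKM in both libraries, the fullest bin of ratios held 8.57% and the next 6.16%. No expected share was computed, so these shares cannot show whether the values move in steps of whole reads.

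The comparison and the 61 gene lists were chosen with earlier results of these data known. Genes named are Setdb1, the 15 highest and 15 lowest ratios at a mean of at least 5 FPKM, up to 4 members per list by size of ratio with those at 2-fold or more, and the 10 most abundant genes. Other members and Ubd, Cdkn1a and the region and leukocyte genes were chosen after their values were seen where this rule does not cover them. Alternatives were pseudocounts of 0.1 and 5, no filter, other filters and folds, and 3 rescalings. Some named genes are not reported here. The 2 columns of per-sample values in the repeat table were not used. Promoter windows of 300 bases are RefSeq's on GRCm38.p6. Calling was checked on simulated data. Python 3.11.15, pandas 2.3.3, NumPy 2.4.6 and Matplotlib 3.10.9 were used.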

Additional observations from a re-analysis of the deposited data

How the results depend on the processing

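Calls of 157 genes higher and 241 lower depended on the limits set. A pseudocount of 0.1 gave 358 higher and 341 lower, one of 5 gave 58 and 142, a limit of 1.5-fold gave 1101 and 676, and one of 4-fold gave 26 and 31, each by construction of the scale. Rescaling to the median gene gave 97 higher and 385 lower. Without a filter there were 175 and 251, at a mean of at least 5 FPKM 109 and 196, with the filter on the mean of the pair 168 and 242, with equal FPKM sums 149 and 257, and with sums equal without the 50 highest genes 145 and 258. None of Setdb1 and the genes of the 15 highest and 15 lowest ratios changed direction under these alternatives. This was fixed in advance, because filters and pseudocounts keep the direction and the rescalings shift a ratio by less than these genes' ratios. Counting each gene once per alternative, 26 values moved over 1.5-fold, all under other pseudocounts, and 222 did not. A filter leaves a gene's ratio as it was, and the rescalings shift it by less than 1.5-fold. Only the pseudocounts could therefore move a value. With 0.1, 11 values moved and 20 did not, and with 5, 15 moved and 16 did not. Counting each of 56 lists once per alternative, 439 medians stayed close while 3 moved. These were Colon genes (-0.61) and Leukocyte markers (-0.86) at a mean of at least 5 FPKM and Enteroendocrine hormones (-1.56) with the pair's filter, where fewer genes were compared. Small medians of the cholesterol, circadian, gasdermin, glutathione and selenoprotein lists changed sign under rescaling. No paired analysis was possible because VEMD6 and VEMD8 are 1 library each. Without replicates or counts, differences of genes near the filter cannot be told from counting noise.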

Other observations

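Of the genes called higher, 5 that build or modify glycans are given here. They were picked after their values were seen, and no list of such genes was counted. B3galt5, which adds galactose, was 5.93 FPKM in VEMD6 and 45.4 in VEMD8 against 4.82 to 17.6 in the other 4 crypt libraries. Gcnt3, a mucin core enzyme, was 9.38 and 34.6 FPKM, and Chst4, a sulfotransferase of mucin-type glycans, was 15.5 and 44.1 FPKM. Galnt11 and Mgat4c were 3.74 and 11.5 FPKM and 2 and 10.6 FPKM. VEMD8 was the highest of the 6 libraries for all 5 genes.

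Single genes outside the groups described above also differed. Cfhr2, a complement factor H related gene, was 0.96 FPKM in VEMD6 and 33.2 in VEMD8 and at most 0.44 in the other 4. Cd84, a receptor of the SLAM family, was 18.9 and 116 FPKM, and Anxa10, an annexin of gastric epithelium, was 7.02 and 39.6 FPKM. Dnase1 was 72.0 and 9.05 FPKM, and Selenop, the selenium carrier of plasma, was 96.1 and 21.1 FPKM. Pdk4 and Angptl4, targets of PPAR receptors, were 11.6 and 3.39 FPKM and 10.6 and 3.78 FPKM. In the list of PPAR targets and fatty acid oxidation, 2 of 22 genes were called lower and 1 higher. Its median was -0.21, with ratios from -1.52 to 2.01. Leap2, the ghrelin receptor antagonist, was 79.0 and 26.8 FPKM, and Ghrl, ghrelin, was 8.55 and 3.77 FPKM.

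Some calls fell on near copies. Eif3j2 was 12.7 FPKM in VEMD6 and 0.54 in VEMD8 while Eif3j1 was 19.0 and 52.4, and their sum was 31.7 and 52.9. Tmem254c was 4.47 and 51.2 FPKM, and the sum over the 3 Tmem254 genes was 83.9 and 134. Zfp990 and Zfp982, zinc finger genes of chromosome 4, were 0.10 and 6.41 FPKM and 1.55 and 9.76 FPKM, and the sum over them and the like genes Zfp992, Zfp980 and Zfp987 was 10.6 and 27.5. Reads shared between copies cannot be assigned from these values.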
